A study of Mus musculus with 9 samples.

Results

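The translation initiation and elongation factor genes of the mouse were followed through an acetylated RNA immunoprecipitation (acRIP) of testis poly(A) RNA. Members were the protein-coding genes whose symbol starts with Eif or Eef and a digit, with names taken from the GENCODE annotation, and 68 of the 55401 genes in the count table met the rule. All 9 libraries came from testis RNA of wild-type (WT) mice, ICR by the study's methods, and the age of the testis donors is not given in the sources used here. The 3 input libraries were made from the poly(A) RNA before any antibody was added, the 3 IgG libraries from RNA recovered with a rabbit control immunoglobulin, and the 3 acRIP libraries, labelled IP, from RNA recovered with an antibody against N4-acetylcytidine (ac4C), an acetylated form of the RNA base cytidine. For sequencing, a β-globin probe carrying ac4C was mixed into the RNA before the precipitations, and all libraries were made by Smart-seq2, which primes on the poly(A) tail and amplifies the cDNA. The precipitated RNA could not be quantified because there was too little of it, so a level in a library is a share of that library and not an amount recovered. The labels do not say whether the replicates were separate animals or separate precipitations, so the p-values measure only the spread between these libraries.

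Translation initiation assembles a ribosome on the start codon of an mRNA. The factor eIF2 carries the initiator tRNA, eIF3, eIF1 and eIF1A hold the small subunit in a scanning state, the eIF4 factors bind the mRNA cap and unwind the leader, and eIF5 and eIF5B lead to start-codon choice and subunit joining. Elongation then depends on eEF1, which delivers aminoacyl-tRNA, and eEF2, which moves the ribosome along. In testis many mRNAs of spermatids are stored before they are translated, which makes the supply and the inhibitors of these factors a long-standing subject in germ cell biology.

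Total counts ran from 22023925 to 31340090 in input, from 14647542 to 18786779 in IgG and from 16025779 to 18639134 in acRIP, and between 81.9% and 84.3% of the counts from 1 to 20 were even, as when both mates of a pair are counted, so counting error is larger than the counts show. The dominant ribosomal RNA entries, summed, took 0.54% to 0.613% of counts in input, 5.14% to 5.57% in IgG and 9.35% to 10.6% in acRIP, and genes with at least 1 count numbered 28552 to 29642, 26204 to 26874 and 22206 to 22402. The tissue label was checked against markers: the spermatid genes Prm1 and Prm2 averaged 8938 and 8462 FPKM in input, spermatocyte, Sertoli and Leydig cell markers were detected, and Rhox5 of Sertoli cells was at 0 in all 9 libraries. Of 4 epididymal genes, Lcn5 and Spint4 were at 0 throughout, Crisp1 had 70, 86 and 66 counts in input, and Defb20 had 12 counts or fewer in any library. Summed over 4 macrophage markers, the level was 4.28 to 5.71 FPKM in input, 4.77 to 7.14 in IgG and 0.317 to 1.06 in acRIP. All 4 passed the test as lower in acRIP than in IgG, and Cd163 was at 0 in every acRIP library. FPKM, counts per kilobase of merged exons, scaled to the library total, is used wherever genes are compared with each other. Its values are also listed by group. The totals include ribosomal RNA, whereas the log2 fold changes use TMM scaling, so these scales can differ for small changes.

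Testis expressed nearly the whole translation factor set, from Eef1a1, above every other member, to Eef1a2, with no count. The 68 genes together took 1.02% of the counts in each input library, 1.12% to 1.15% in IgG and 1.03% to 1.05% in acRIP. These totals include ribosomal RNA, whose share was lowest in input and highest in acRIP, so the groups do not have an equal base. In input, 7 members averaged at least 100 FPKM, 41 at least 10, and the 5 highest made up 47.4% of the summed FPKM of all members. For these levels in whole testis RNA, fewer cells of a type and less RNA per cell cannot be told apart. Over the 64 members that passed the filter on low counts, the median coefficient of variation between replicates was 4.54% for input, 4.92% for IgG and 5.09% for acRIP.

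**Figure D1:**
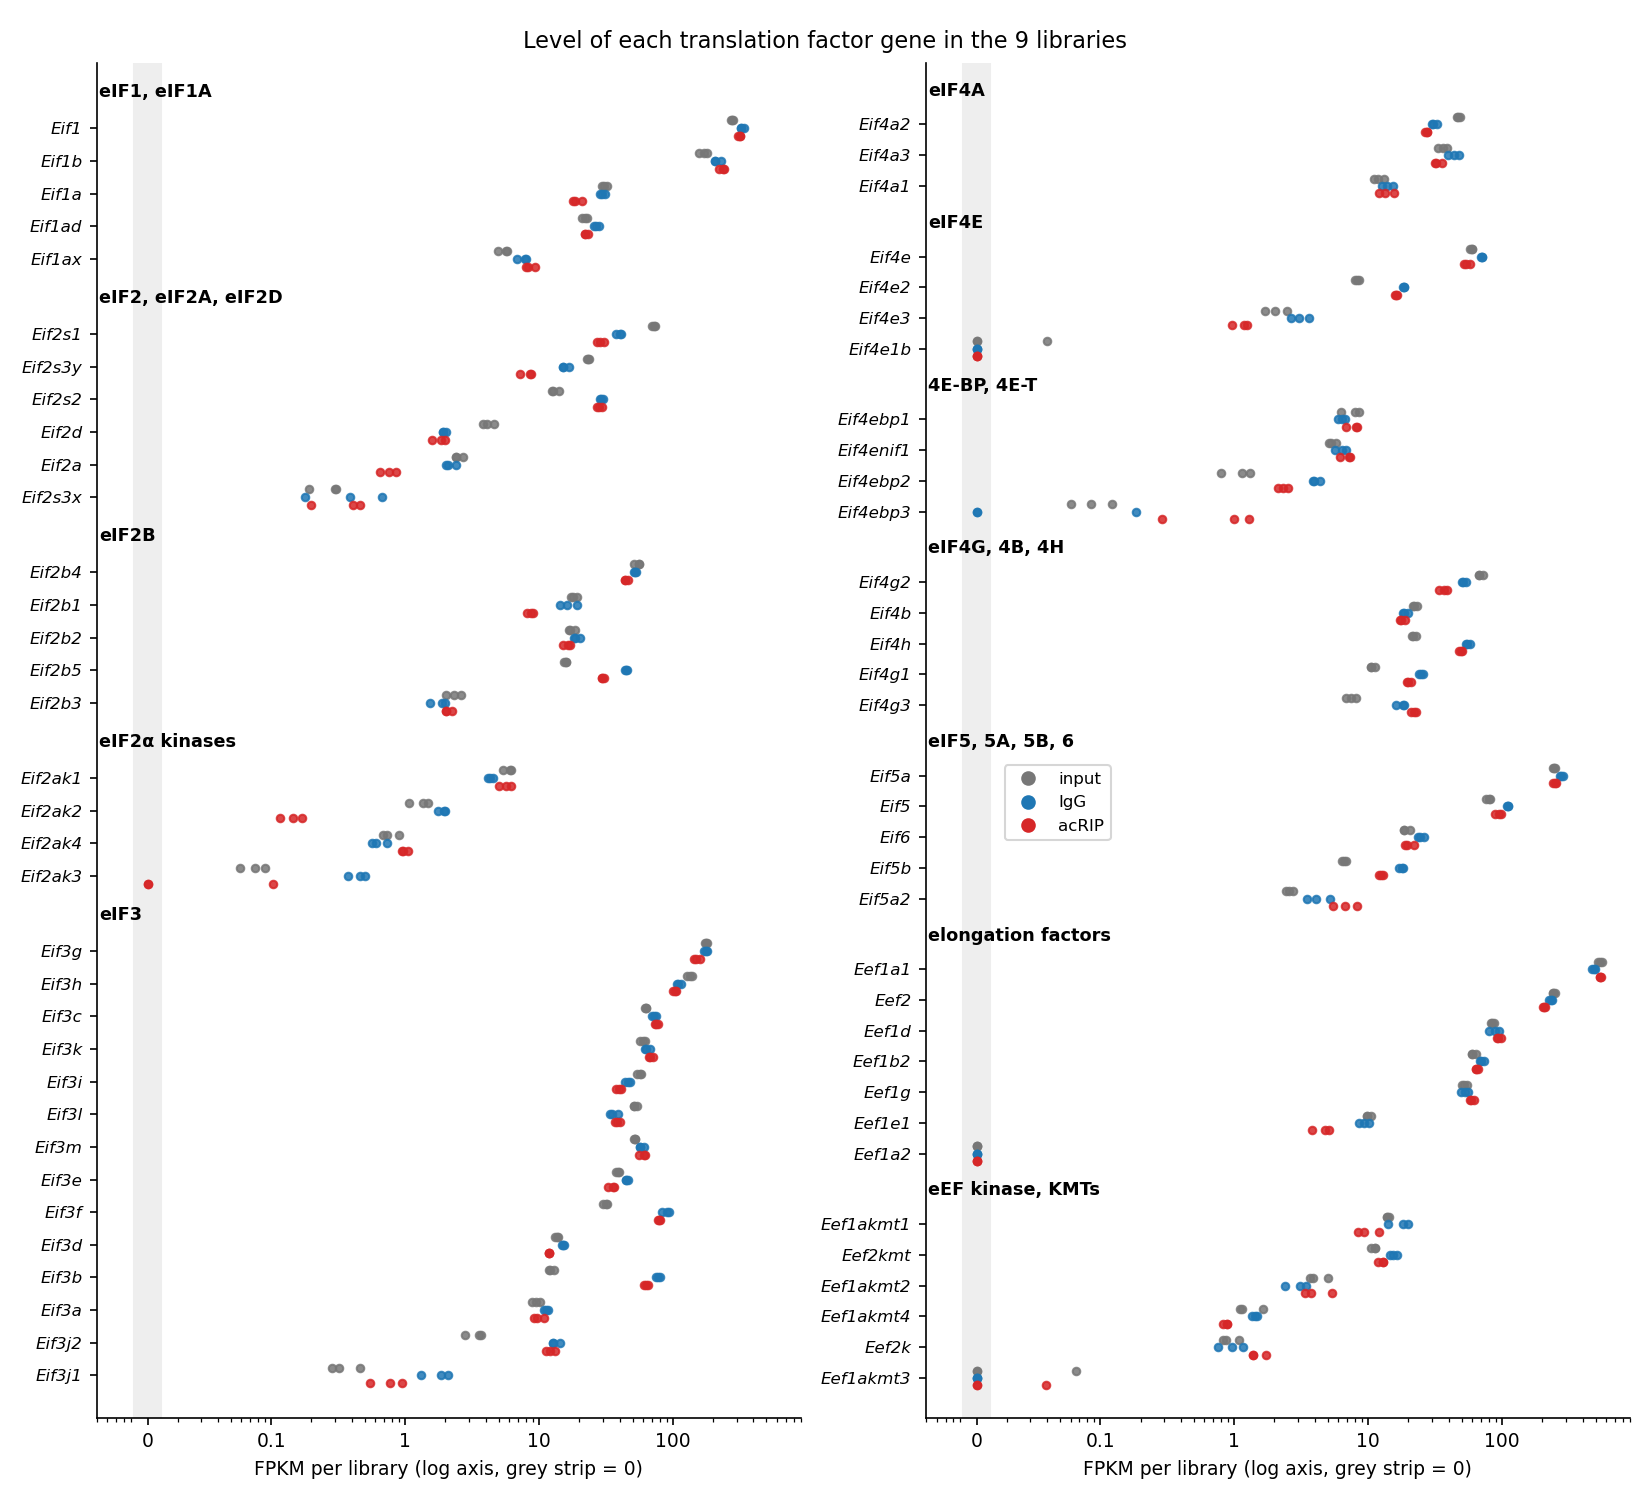
Each point is 1 library, with FPKM on a log axis, for all 68 members grouped by function and ordered by mean input level within a group; grey is input, blue IgG and red acRIP, and points on the grey strip are at 0. Eif3b, Eif3f and Eif2s2 sit higher in both precipitations than in input while Eif2ak2 and Eif2a sit lowest in acRIP.

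Eef1a1 (ENSMUSG00000037742, chr9:78478449-78489151, minus strand, mm10), which encodes the tRNA-delivering subunit eEF1A1, was the most abundant member. It had 541, 558 and 520 FPKM in the input libraries, 485, 494 and 473 in IgG, and 544, 544 and 550 in acRIP. The acRIP libraries lay above all IgG libraries and within the range of input. The log2 fold change of acRIP over IgG was 0.22 (SE 0.03), which is 1.17-fold (edgeR quasi-likelihood test, adjusted p = 4.10e-07). Over input it was 0.10 (SE 0.03, adjusted p = 0.00694), and that second value did not pass under 2 of 6 scalings. These 6 were the main fit, DESeq2, RLE factors, upper quartile factors, library size only and a fit of protein-coding genes only.

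The next levels in input belonged to Eif1, a start-site fidelity factor, at 276 FPKM, to Eif5a, which helps ribosomes past difficult peptide bonds, at 244 FPKM, and to Eef2, the translocase, at 243 FPKM. The input libraries of Eif5a spanned 239 to 248 FPKM and those of Eef2 240 to 251 FPKM, so the order of this pair is not resolved. Eif3g at 177 FPKM, Eif1b at 169 FPKM and Eif3h at 133 FPKM followed, and the input libraries of Eif1b (156 to 180 FPKM) overlapped those of Eif3g (174 to 181 FPKM). At the other end, Eef1a2, the form of eEF1A known from muscle and neurons, had 0 counts in all 9 libraries, where 3 counts would have been 0.0957 to 0.205 CPM, counts scaled to the library total. Eif4e1b, known as the eIF4E of oocytes, had 2 counts in input replicate 2 and 0 elsewhere, and the lysine methyltransferase gene Eef1akmt3 had 4 counts in input replicate 3, 2 in acRIP replicate 2 and 0 elsewhere. These 3 genes and Eif4ebp3 were not tested.

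The comparison of acRIP with IgG asks which RNAs the ac4C antibody recovers beyond what beads and immunoglobulin take up. Called genes are those with an adjusted p under 0.05, over all 22510 genes tested, and a fold change over 2. Among the 64 tested members, 0 were called higher in acRIP, where 11.5% of all tested genes were, and 5 were called lower, where 20.9% of all tested genes were (edgeR; at an unadjusted p under 0.05 and over 2-fold the counts were also 0 and 5, and DESeq2 gave 0 and 5). At any size of change, 15 members passed the test as higher (26.4% of all tested genes), 34 as lower (37.6%) and 15 did not pass. The median log2 fold change was -0.14 over the members, -0.11 over tested protein-coding genes and -0.09 over all tested genes. In 47 members, 73.4%, the absolute log2 fold change was under 0.5, a share that was 50.7% over tested protein-coding genes. The share moved with level, at 88.0% of members and 78.8% of protein-coding genes from 5 FPKM up, and 21.4% and 32.3% below it.

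The members called lower were Eif2ak3, Eif2ak2, Eif2a, Eif4e3 and Eif3j1, and each averaged under 5 FPKM over the 9 libraries. Split at that level, a limit chosen after the values were seen, 5 of 14 members under 5 FPKM were called lower, where 30.5% of tested protein-coding genes under 5 FPKM were. Of the 50 members at or above it, 0 were called in either direction, where 1.11% of such protein-coding genes were called higher and 3.19% lower. Within that upper class the SD of the log2 fold changes was 0.32 over members and 0.47 over protein-coding genes. All 5 also have exons that overlap another annotated gene, as 29 of the 68 members do. Use of strand in the counting is not stated in the sources used here, so reads of such neighbours cannot be told apart, and the part of these overlaps was not tested.

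**Figure D2:**
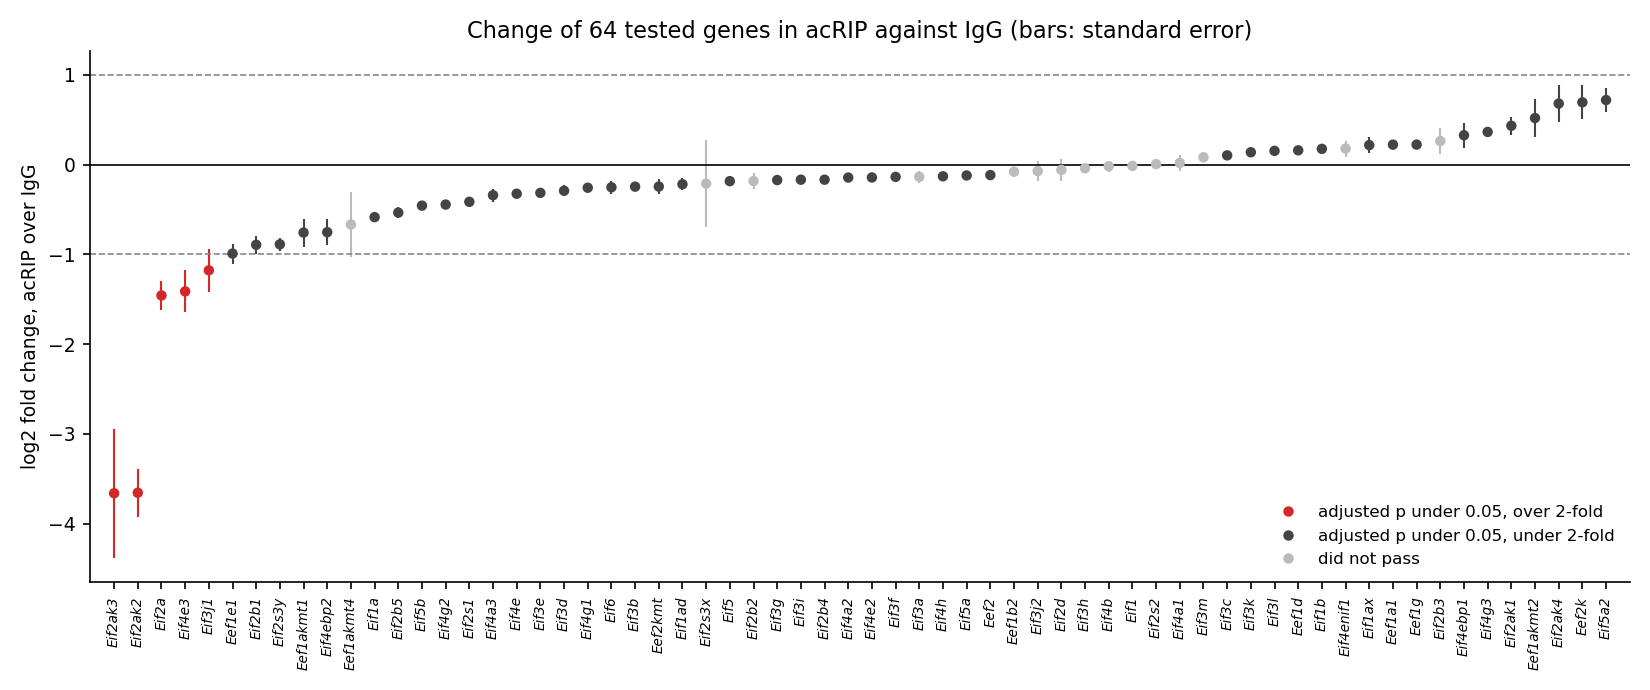
Each point is the change from IgG to acRIP on the log2 scale for 1 of the 64 tested members, in rank order, with bars of 1 standard error from edgeR; dashed lines mark a 2-fold change. The 5 red points are the genes called lower, no gene reaches the upper line, and Eif5a2 is the highest at 0.72.

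The protein kinases that phosphorylate eIF2α, and by that slow initiation under stress, passed the test against IgG in different directions, Eif2ak2 and Eif2ak3 as lower in acRIP and Eif2ak1 and Eif2ak4 as higher. Eif2ak2 (ENSMUSG00000024079, chr17:78852564-78882573, minus strand, mm10) encodes PKR, the kinase activated by double-stranded RNA. It had 238, 120 and 155 counts in input, 148, 189 and 167 in IgG, and 14, 14 and 10 in acRIP. Every acRIP library was below every library of the other groups. On the FPKM scale the means were 1.31, 1.90 and 0.145, and the log2 fold change was -3.66 (SE 0.27) over IgG, which is 12.6-fold lower (adjusted p = 8.21e-13, edgeR), and -3.09 (SE 0.27) over input (adjusted p = 7.51e-12). It was the 1 member called lower over IgG under all 22 alternative settings and library omissions tried.

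Eif2ak3 (ENSMUSG00000031668, chr6:70844515-70905245, plus strand, mm10) encodes PERK, the kinase of the endoplasmic reticulum. It had 11, 10 and 12 counts in input, 44, 52 and 42 in IgG, and 10, 0 and 0 in acRIP. IgG was thus the group that stood apart, and all 10 acRIP counts came from 1 library. The log2 fold change of acRIP over IgG was -3.66 (SE 0.72, adjusted p = 5.21e-05), that of IgG over input 2.603 (SE 0.62, adjusted p = 6.73e-04), and that of acRIP over input -1.06 (SE 0.79, adjusted p = 0.228). Without acRIP replicate 1 both remaining acRIP libraries were at 0, and the fitted values, which then depend on the prior count, were -8.77 over IgG and -6.17 over input, where the call was gained (adjusted p = 5.69e-04).

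Eif2ak1, encoding the haem-regulated kinase HRI, was the most abundant of the 4 kinase genes, with 5.42 to 6.17 FPKM in input, 4.17 to 4.503 in IgG and 5.06 to 6.24 in acRIP. The IgG libraries were below all others, and acRIP over IgG passed with a log2 fold change of 0.43 (SE 0.10, adjusted p = 2.99e-04), while acRIP over input was 0.02 (SE 0.09, adjusted p = 0.862), with a sign that depended on the scaling. Eif2ak4, encoding the amino acid sensor GCN2, had 0.689 to 0.907 FPKM in input, 0.564 to 0.736 in IgG and 0.943 to 1.05 in acRIP, and passed over IgG at 0.68 (SE 0.21, adjusted p = 0.00528). Over input it was 0.42 (SE 0.20, adjusted p = 0.0584). Of the marker lists, 3 of 4 macrophage genes were called lower in acRIP than in IgG. So were 2 of 5 spermatogonial genes (Gfra1 at -2.11 and Stra8 at -1.07), the erythroid gene Alas2 (-2.92) and Crisp1 (-3.74). In the other direction, 1 of the 5 spermatogonial genes and 1 of 4 peritubular and smooth muscle genes were called higher. Over tested protein-coding genes, 43.5% with a mean under 1 FPKM and 17.0% from 1 to 5 FPKM were called lower, the classes of Eif2ak3 and Eif2ak2. The part of these in the falls of the kinase genes was not tested.

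**Figure D3:**
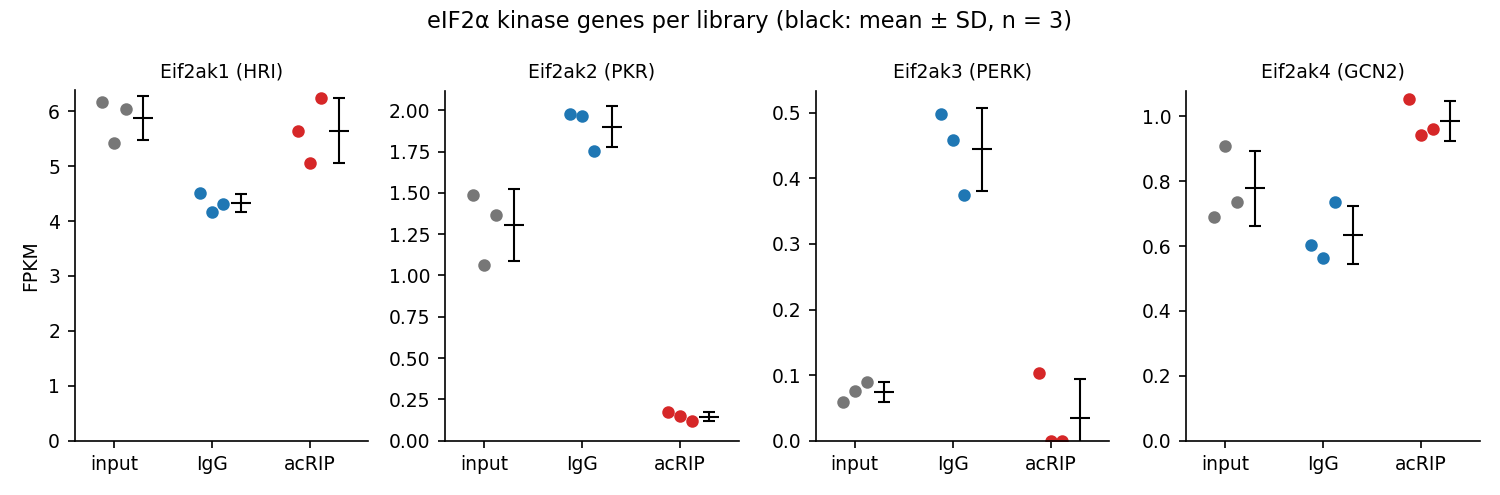
Levels of the 4 eIF2α kinase genes in FPKM, 1 point per library, with black marks for mean ± SD (n = 3); each panel has its own axis from 0. Eif2ak2 is lowest in the 3 acRIP libraries, Eif2ak3 is highest in the 3 IgG libraries, and Eif2ak1 and Eif2ak4 lie higher in acRIP than in IgG.

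The substrate of these kinases, eIF2, and the alternative tRNA carriers were mostly lower in acRIP than in input. Of 6 genes in the group, 4 were called lower in acRIP than in input, where 22.9% of all tested genes were, and 1 higher, where 17.7% were. Against IgG 1 was called lower. Eif2a, encoding an alternative initiator tRNA carrier, had 524, 325 and 329 counts in input, 215, 239 and 230 in IgG and 64, 98 and 78 in acRIP. Its acRIP libraries lay below all others on the FPKM scale (0.653 to 0.859, against 2.02 to 2.40 in IgG and 2.41 to 2.73 in input). The log2 fold change was -1.46 (SE 0.17) over IgG (adjusted p = 7.90e-09) and -1.65 (SE 0.16) over input (adjusted p = 1.33e-10).

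Eif2s1, which encodes the phosphorylated subunit eIF2α, had 70.3 to 73.0 FPKM in input, 37.8 to 40.7 in IgG and 27.1 to 30.6 in acRIP, 3 ranges that did not overlap. Its log2 fold change was -1.25 (SE 0.05) for acRIP over input, -0.83 (SE 0.05) for IgG over input and -0.41 (SE 0.05) for acRIP over IgG, and all 3 passed (the highest adjusted p was 6.52e-09, edgeR). The Y-linked γ subunit gene Eif2s3y had 22.8 to 23.5 FPKM in input, 15.1 to 16.8 in IgG and 7.25 to 8.76 in acRIP, again without overlap, with log2 fold changes of -1.42 (SE 0.07) over input and -0.89 (SE 0.07) over IgG. Its X-linked copy Eif2s3x was low everywhere, at 0.191 to 0.307 FPKM in input, 0.179 to 0.677 in IgG and 0.197 to 0.458 in acRIP, and did not pass in any comparison. The authors counted uniquely mapped reads, so the copies of such close gene pairs can be undercounted.

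The β subunit gene Eif2s2 went the other way, with 12.5 to 14.1 FPKM in input, 28.68 to 29.99 in IgG and 27.3 to 29.6 in acRIP. Both precipitations were above every input library, at a log2 fold change of 1.19 (SE 0.05) each, while acRIP over IgG was 0.01 (SE 0.05, adjusted p = 0.929), with a sign that depended on the scaling. Eif2d, a non-canonical carrier and recycling factor, had 3.83 to 4.64 FPKM in input, 1.91 to 2.03 in IgG and 1.59 to 2.00 in acRIP. It was called lower over input in acRIP, at -1.13 (SE 0.12), and in IgG, at -1.07 (SE 0.12), which was -0.996 and just short of 2-fold without input replicate 3. Its acRIP over IgG was -0.06 (SE 0.13, adjusted p = 0.706).

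Subunits of eIF2B, the exchange factor that reloads eIF2 with GTP, were called in neither direction against IgG. Eif2b5, the catalytic subunit, had 15.4 to 15.9 FPKM in input, 44.1 to 45.4 in IgG and 29.4 to 30.7 in acRIP. Its ranges did not overlap, and it was called higher over input in acRIP (log2 fold change 1.01, SE 0.06) and in IgG (1.54, SE 0.06), while acRIP over IgG passed at -0.53 (SE 0.06, adjusted p = 3.86e-09). The acRIP call over input was lost in 7 of 22 alternatives, with a value of 0.99 without input replicate 2 and 0.999 without acRIP replicate 1. Eif2b1, a regulatory subunit, fell by 0.89 on the log2 scale over IgG (SE 0.10), short of the 2-fold limit. Eif2b4 was the most abundant subunit gene in all 9 libraries and Eif2b3 the least, with 19.8 to 33.5 times between them.

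The 14 genes of eIF3, the largest initiation factor, included the member highest over input, Eif3b. Against input, 4 were called higher in acRIP (Eif3b, Eif3f, Eif3j1 and Eif3j2) and 0 lower, where 17.7% and 22.9% of all tested genes were. In IgG over input, the same 4 genes were called higher (13.5% of all tested genes) and 0 lower (7.22%). Against IgG, acRIP had 0 eIF3 genes called higher and 1 lower, 3 others passed as higher and 6 as lower at smaller sizes, and the median log2 fold change was -0.14.

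Eif3b (ENSMUSG00000056076, chr5:140419328-140443360, plus strand, mm10), a scaffold subunit of the RNA-binding core, had 12.9, 11.8 and 12.1 FPKM in input, 80.5, 77.2 and 74.3 in IgG, and 60.9, 64.7 and 63.4 in acRIP. Both precipitations were far above input, and acRIP lay below IgG. The log2 fold change over input was 2.43 (SE 0.05, adjusted p = 1.42e-27) in acRIP and 2.68 (SE 0.05, adjusted p = 9.90e-29) in IgG, and acRIP over IgG was -0.25 (SE 0.05, adjusted p = 5.55e-05). Eif3f, a deubiquitinase-like subunit, had 30.3 to 32.0 FPKM in input, 83.5 to 94.0 in IgG and 77.9 to 80.0 in acRIP, with log2 fold changes over input of 1.41 (SE 0.05) in acRIP and 1.55 (SE 0.05) in IgG.

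The mouse has a pair of genes for the loosely bound subunit eIF3J. Eif3j2 had 2.82 to 3.70 FPKM in input, 12.7 to 14.3 in IgG and 11.2 to 13.2 in acRIP, and acRIP over IgG was -0.07 (SE 0.11, adjusted p = 0.589). Eif3j1 had 84, 41 and 37 counts in input, 113, 203 and 227 in IgG, and 88, 60 and 76 in acRIP. It was called lower in acRIP than in IgG, at -1.18 (SE 0.24, adjusted p = 7.80e-05), and higher than in input, at 1.14 (SE 0.26, adjusted p = 2.31e-04), so its acRIP level lay between the others. The first value was -0.99 without acRIP replicate 2 and the second 0.96 without acRIP replicate 1, each short of 2-fold.

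A complex needs its subunit proteins in fixed proportion, but the values here are shares of RNA and do not give protein levels. The spread of RNA levels over the subunit genes was measured within each library. Eif3j1, averaging 0.355 FPKM in input, 1.76 in IgG and 0.757 in acRIP, was left out for its low input level, so Eif3j2 stood for eIF3J. Kept in, Eif3j1 would be the lowest gene in every library and the ratios would be larger. The ratio of the highest of these 13 genes to the lowest was 48.8 to 61.7 in input, 14.7 to 16.6 in IgG and 13.2 to 17.4 in acRIP. Eif3g was the highest in all 9 libraries, and the lowest of these 13 was Eif3j2 in input and Eif3a in both precipitations. The SD of log2 FPKM over these genes was 1.58 to 1.63 in input, 1.21 in all IgG libraries and 1.20 to 1.29 in acRIP.

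**Figure D4:**
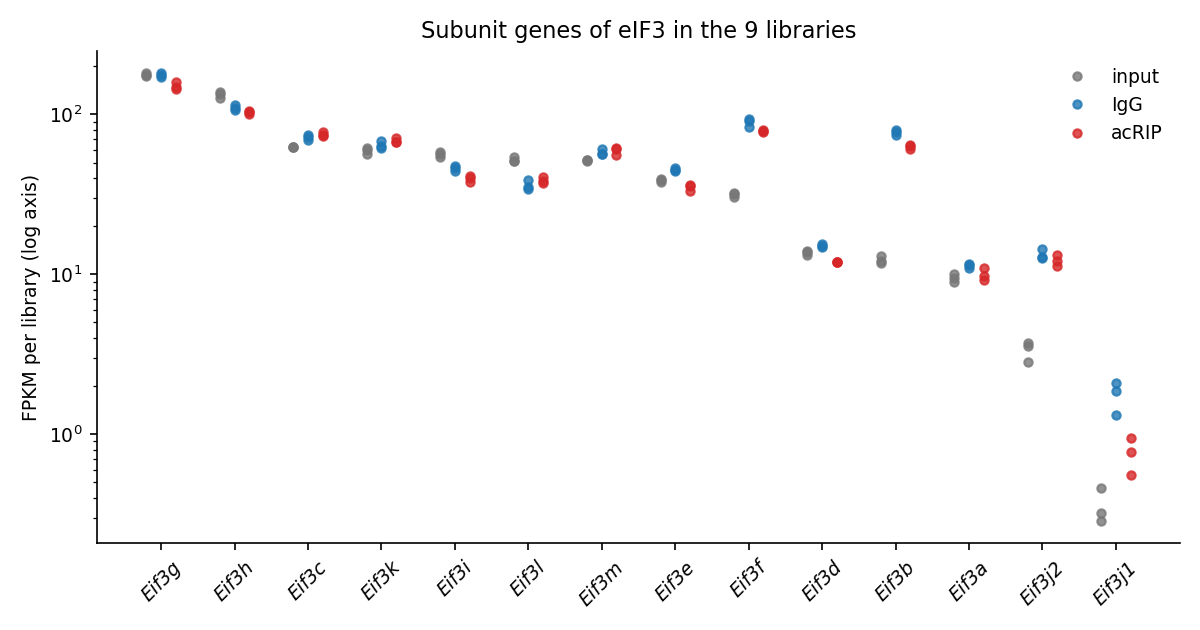
FPKM of the 14 eIF3 subunit genes on a log axis, ordered by mean input level, with 1 point per library; grey is input, blue IgG and red acRIP. Eif3b, Eif3f, Eif3j2 and Eif3j1 stand above input in both precipitations, while no other subunit was called against input.

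Of the cap-binding proteins, Eif4e, the main cap receptor, had 57.9 to 59.9 FPKM in input, 69.5 to 71.1 in IgG and 51.8 to 57.3 in acRIP. Its log2 fold change was -0.32 (SE 0.04, adjusted p = 2.97e-08) over IgG and -0.04 (SE 0.04, adjusted p = 0.329) over input. Eif4e2, encoding the repressive cap-binder 4EHP, had 8.01 to 8.60 FPKM in input, 18.2 to 18.6 in IgG and 16.01 to 16.37 in acRIP, and was called higher over input in acRIP at 1.04 (SE 0.05) and in IgG at 1.18 (SE 0.05), the former lost in 5 of 22 alternatives. Eif4e3, a divergent family member, had 135, 111 and 139 counts in input, 113, 125 and 168 in IgG, and 50, 45 and 50 in acRIP. Its acRIP libraries were below all others on the FPKM scale, and the log2 fold change was -1.41 (SE 0.23, adjusted p = 4.76e-06) over IgG and -0.79 (SE 0.23, adjusted p = 0.00325) over input.

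The proteins that bind eIF4E and hold it from the scaffold differed from gene to gene. Eif4ebp1 had 6.28 to 8.57 FPKM in input, 5.99 to 6.72 in IgG and 6.89 to 8.21 in acRIP, and acRIP over IgG passed at 0.33 (SE 0.14, adjusted p = 0.0371, lost under 1 of 6 scalings). Eif4ebp2 had 0.795 to 1.30 FPKM in input, 3.90 to 4.36 in IgG and 2.14 to 2.52 in acRIP, with log2 fold changes of 1.93 (SE 0.15) for IgG over input, 1.18 (SE 0.16) for acRIP over input and -0.75 (SE 0.15) for acRIP over IgG.

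Eif4ebp3, the remaining gene of these inhibitors, had 2, 2 and 1 counts in input, 2, 0 and 0 in IgG, and 12, 4 and 16 in acRIP. The 3 acRIP libraries held more counts than any other library, but too few for the filter. Exons of Eif4ebp3 overlap those of another annotated gene on the same strand, AC115631.1, and the part of this overlap was not tested. Per total count, acRIP was 16.2 times IgG (95% exact interval 4.13 to 139) and 9.40 times input (3.64 to 30.9). These intervals take each count as independent and are too narrow where both mates of a pair were counted. With every gene that had a count in the test, it was the 1 member called higher in acRIP than in IgG (edgeR adjusted p = 0.0108) and higher than in input (adjusted p = 0.0164). It also passed the filter, and was called higher over both, in 7 of the 9 fits that left out 1 library, but not in those without acRIP replicate 1 or 3.

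Among the eIF4G scaffold genes, Eif4g3 and Eif4g1 were higher in both precipitations than in input and Eif4g2 was lower. Eif4g3 had 6.79 to 8.14 FPKM in input, 16.3 to 18.7 in IgG and 21.0 to 22.8 in acRIP, 3 ranges in rising order without overlap. Its log2 fold change was 1.63 (SE 0.06) for acRIP over input, 1.27 (SE 0.06) for IgG over input and 0.36 (SE 0.06, adjusted p = 2.32e-06) for acRIP over IgG. Eif4g1, the canonical scaffold, had 10.5 to 11.3 FPKM in input, 24.1 to 25.9 in IgG and 19.7 to 20.9 in acRIP, at 0.99 (SE 0.05) for acRIP over input, 1.25 (SE 0.05) for IgG over input and -0.26 (SE 0.05) for acRIP over IgG. For acRIP over input, Eif4g1 was just short of 2-fold and was called higher in 8 of 22 alternatives. Eif4g2, encoding the cap-independent relative DAP5, had 67.3 to 72.3 FPKM in input, 50.4 to 53.4 in IgG and 34.0 to 39.1 in acRIP, and passed as lower in all 3 comparisons at -0.83 (SE 0.04), -0.39 (SE 0.04) and -0.44 (SE 0.04) for acRIP over input, IgG over input and acRIP over IgG.

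The helicase cofactor gene Eif4h was called higher over input in acRIP at 1.24 (SE 0.04) and in IgG at 1.37 (SE 0.04). Of the helicases themselves, Eif4a2 had 46.0 to 48.3 FPKM in input and 26.5 to 27.7 in acRIP, at -0.71 (SE 0.05) over input and -0.14 (SE 0.05, adjusted p = 0.00879) over IgG, a pass lost under 2 of 6 scalings. Eif4a1 had 10.99 to 13.14 FPKM in input and 12.2 to 15.7 in acRIP, at 0.28 (SE 0.08, adjusted p = 0.00372) over input and 0.02 (SE 0.08, adjusted p = 0.858) over IgG, where the sign depended on the scaling.

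In the group of subunit joining factors and eIF5A, Eif5a2 (chr3:28781276-28798846, plus strand, mm10), the minor eIF5A gene, had 2.74, 2.46 and 2.57 FPKM in input, 3.50, 4.11 and 5.16 in IgG, and 6.73, 5.49 and 8.24 in acRIP. The groups did not overlap, and acRIP was the highest. The log2 fold change was 0.72 (SE 0.13, adjusted p = 1.89e-05) over IgG, the largest rise among tested members but under 2-fold, and 1.47 (SE 0.13, adjusted p = 1.94e-11) over input, with 0.75 (SE 0.14) for IgG over input. Eif5b, the GTPase of subunit joining, had 6.37 to 6.87 FPKM in input, 16.9 to 18.2 in IgG and 11.97 to 12.82 in acRIP, at 1.45 (SE 0.05) for IgG over input, 0.99 (SE 0.05) for acRIP over input and -0.46 (SE 0.05) for acRIP over IgG. For acRIP over input, Eif5b was just short of 2-fold and was called higher in some alternatives, among them DESeq2 and RLE factors. Eif1a and Eif1ax, the genes of the scanning factor eIF1A, passed in opposite directions over IgG, at -0.58 (SE 0.06, adjusted p = 7.26e-10) and 0.22 (SE 0.09, adjusted p = 0.0338, lost under 1 of 6 scalings).

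Over all members and input as the reference, 11 were called higher in acRIP (17.2%, against 17.7% of all tested genes) and 6 lower (9.38%, against 22.9%), and the median log2 fold change was 0.11, against -0.12 over tested protein-coding genes. In IgG over input, 13 were called higher (20.3%, against 13.5%) and 1 lower (1.56%, against 7.22%), with a median of 0.23 against -0.01. The background shares moved with level. From 5 FPKM up, 8 of 50 members were called higher in acRIP than in input and 3 lower, against 9.69% and 8.23% of protein-coding genes. For IgG over input, 10 of these 50 were called higher and 0 lower, against 9.07% and 2.08%. Under 5 FPKM, 3 of 14 members were called higher in acRIP than in input and 3 lower, against 20.1% and 30.6%. These comparisons share the input libraries, and the values of each gene are given side by side. Called lower in acRIP than in both other groups, where 17% of all tested genes were, were Eif2a and Eif2ak2, and without acRIP replicate 1 the count was 4, with Eef1e1 and Eif2ak3. Called higher than in both, where 7.88% were, was 0 members.

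**Figure D5:**
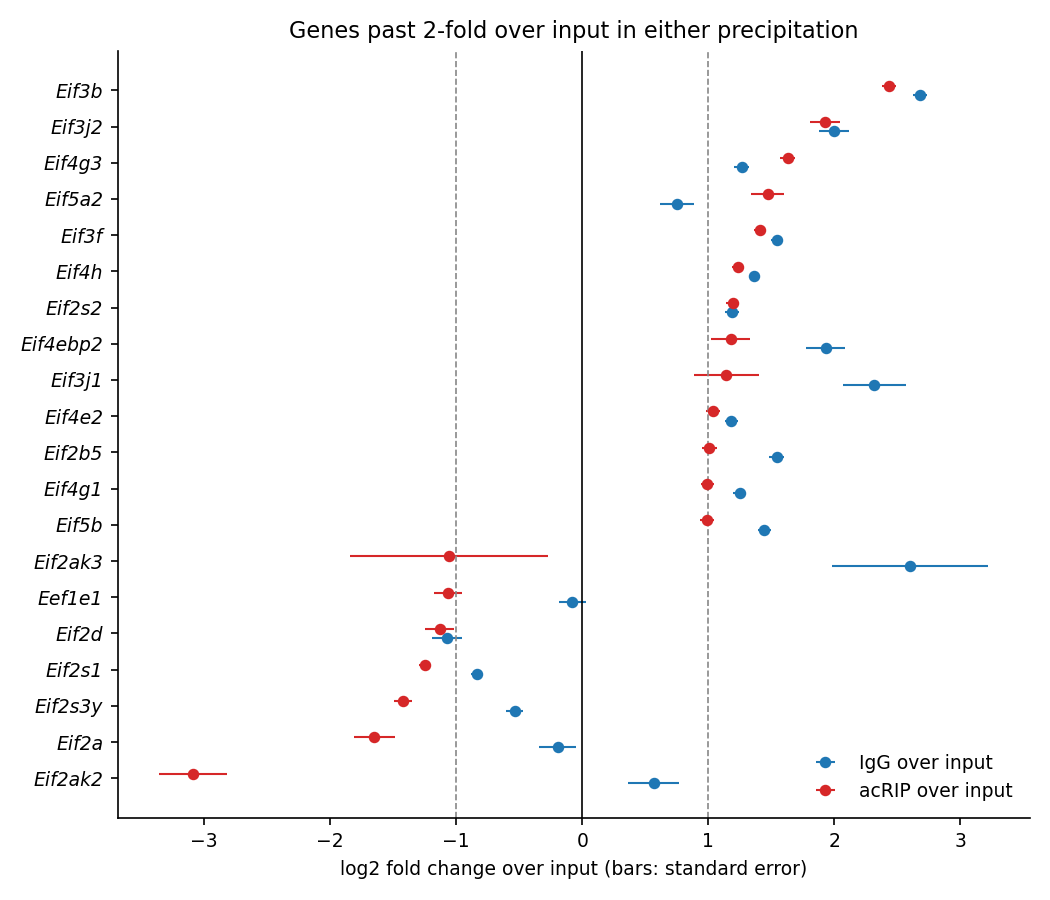
Log2 fold changes over input of the 20 members called in acRIP or in IgG against input, with bars of 1 standard error from edgeR, blue for IgG and red for acRIP; both use the same input libraries. The upper genes lie right of the 2-fold line in IgG except Eif5a2, and Eif2ak2 and Eif2ak3 show the widest gaps between IgG and acRIP.

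Of the 6 tested elongation factor genes, each averaging over 5 FPKM over the 9 libraries, 0 were called against IgG. Over tested protein-coding genes from 5 FPKM up, 1.11% were called higher and 3.19% lower. At any size, 3 of the 6 passed as higher and 2 as lower, where 26.4% and 37.6% of all tested genes did. The passing rises were Eef1a1, Eef1g at 0.22 (SE 0.05) and Eef1d at 0.16 (SE 0.04), which encode parts of the eEF1 complex and its exchange factor. Eef2 had 240 to 251 FPKM in input, 224 to 235 in IgG and 203 to 208 in acRIP, at -0.12 (SE 0.03, adjusted p = 0.00355) over IgG, a pass lost under 2 of 6 scalings. Eef1e1, encoding a scaffold protein of the aminoacyl-tRNA synthetase complex, had the largest change of these 6 genes in acRIP. It had 9.82 to 10.6 FPKM in input, 8.498 to 10.17 in IgG and 3.82 to 5.10 in acRIP. Its acRIP libraries lay below all others, at -0.99 (SE 0.11, adjusted p = 7.07e-09) over IgG, just short of 2-fold, and -1.07 (SE 0.11, adjusted p = 3.77e-10) over input, which became -0.95 without acRIP replicate 2. Eef2k, the kinase that inhibits eEF2, passed as higher over IgG at 0.69 (SE 0.19, adjusted p = 0.00189) and over input at 0.77 (SE 0.18, adjusted p = 4.35e-04).

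Since paralogs can substitute for each other, the ratio of their FPKM within a library was compared between groups for the 8 of 10 chosen pairs with counts in every library, in 24 relations. With 3 libraries against 3, the exact two-sided permutation test cannot go below p = 0.1, which is 0.133 after adjustment over the 24, so 0 relations could pass. Eif5a over Eif5a2 was 94.5 ± 6.49 in input, 67.4 ± 14.3 in IgG and 37.4 ± 7.50 in acRIP (mean ± SD, n = 3), without overlap. Eif1a over Eif1ax was 5.67 ± 0.399, 3.92 ± 0.401 and 2.24 ± 0.0179 in the same order, also without overlap. Eif4ebp1 over Eif4ebp2 was lowest in IgG, at 7.14 ± 0.939, 1.58 ± 0.181 and 3.31 ± 0.139, and Eif4g1 over Eif4g3 was 1.45 ± 0.195, 1.42 ± 0.159 and 0.920 ± 0.0703. The Eif1 over Eif1b ratio moved least of the 8 between input and acRIP, at 1.64 ± 0.0922 in input, 1.55 ± 0.0418 in IgG and 1.36 ± 0.0833 in acRIP. Eif4a1 over Eif4a2 was 0.254 ± 0.0215 in input, 0.452 ± 0.0618 in IgG and 0.505 ± 0.0665 in acRIP, where the precipitations overlapped each other but not input. For Eif3j1 over Eif3j2 the means were 0.105, 0.134 and 0.0619, and for Eif2s3x over Eif2s3y 0.0115, 0.0266 and 0.0422.

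Merged exon length, GC content and cytidine content of the genes, taken from the mm10 annotation, ran weakly with the changes. Across the 64 tested members, Spearman's rho with the log2 fold change of acRIP over IgG was 0.02 for length, 0.07 for GC and 0.08 for cytidine content. For IgG over input, rho with input FPKM was -0.30, and over 15522 tested protein-coding genes it was -0.21. These are correlations across genes, which share libraries and depth and are not independent replicates, and both axes of the last use the input values.

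Other genes of the translation pathway were taken from 4 chosen lists of 48 genes, of which 47 were in the table and 46 were tested. In acRIP over IgG, 0 were called higher and 6 lower, where 11.5% and 20.9% of all tested genes were, at a median log2 fold change of -0.08. The 6 were Ddx3y (-1.30, SE 0.15), a helicase gene of the Y chromosome, Ppp1r15b (-1.36, SE 0.11), which encodes the regulatory subunit of the eIF2α phosphatase, Rptor (-1.23, SE 0.12) of the mTORC1 kinase complex, Impact (-1.54, SE 0.24), an inhibitor of GCN2, and the mitochondrial factors Tsfm (-1.74, SE 0.19) and Mtrf1. Mtrf1, encoding a mitochondrial release factor, had 274, 246 and 254 counts in input, 137, 143 and 206 in IgG and 0 in each acRIP library. With 3 counts per library as the floor, acRIP was at least 53.2-fold lower than IgG and at least 59.5-fold lower than input, or 26.6 and 29.8 with 6 counts as the floor.

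Over input, 4 genes of these lists were called higher in acRIP and 3 lower, where 17.7% and 22.9% of all tested genes were. The rises were Gspt1, the release factor eRF3a, at 2.18 (SE 0.11), Mknk2, an eIF4E kinase, at 1.97 (SE 0.12), Pelo, a ribosome rescue factor, at 1.498 (SE 0.50), and Mtrf1l, a mitochondrial release factor, at 1.40 (SE 0.41). Pelo was low, with 10, 17 and 16 counts in input, 21, 22 and 18 in IgG and 25, 30 and 27 in acRIP. Its IgG over input was 1.02 (SE 0.50) and did not pass (edgeR adjusted p = 0.0894). The genes called lower were Dhx29, a scanning helicase, at -1.07 (SE 0.13), Ppp1r15b at -1.43 (SE 0.11) and Mtrf1. In IgG over input, Gspt1 (2.01), Mknk2 (1.09), Impact (1.01) and Ddx3x (1.60) were called higher and Gfm2, of mitochondrial ribosome recycling, lower (-1.10). Mknk2 passed over IgG at 0.88 (SE 0.12, adjusted p = 1.55e-07), under 2-fold.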

How the data were processed

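Counts of 9 libraries were analysed, 3 each of input, IgG and acRIP, grouped by the sample labels. The authors trimmed reads with Trim Galore (0.6.7), mapped them to mm10 with STAR (2.7.10a), counted uniquely mapped reads per gene with featureCounts (2.0.2) and deposited these counts without normalization, with each gene's exon length. Strand setting and annotation release are not given in the sources used here. Names, positions and gene types came from GENCODE vM21, matched without identifier versions, for 68 of 68 members. FPKM was computed here from counts, lengths and library totals. The 22510 genes kept by filterByExpr were fitted in edgeR 4.0.16 (R 4.3.3) with TMM and 1 mean per group over all 9 libraries, by the quasi-likelihood test with Benjamini-Hochberg adjustment. Standard errors are the log2 fold change over the root of the F statistic. DESeq2 1.42.0 (the authors' tool), limma 3.58.1 on log2(FPKM + 1) and log2(FPKM + 0.1), other scalings and filters, halved counts, blocking on the replicate number and leaving out each library were alternatives. The edgeR, DESeq2 and limma fits were tested on simulated data. Members and lists were chosen with earlier results of these data known. Named were Eef1a1, members called in acRIP, the highest member of each group, the chosen pairs, untested members and called genes of the related lists, and other members named were chosen after their values were seen. Replicates of a group differed by more than sampling noise. Peaks were not analysed here. Columns not used numbered 0. Intervals and floors cover counting error only.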

Additional observations from a re-analysis of the deposited data

How the results depend on the processing

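The 5 members called lower in acRIP over IgG each averaged under 5 FPKM, where low counts limit precision. With 1 library left out in turn, the members called were 0 to 1 higher and 4 to 6 lower for acRIP over IgG, 10 to 13 and 5 to 8 for acRIP over input, 13 and 0 to 1 for IgG over input, and 0 to 1 and 2 to 4 for acRIP against both, with medians of -0.16 to -0.13, 0.12 to 0.17 and 0.21 to 0.24 for the first 3 comparisons. The 1 higher was Eif4ebp3, which was also called, in acRIP over IgG and against both, with every gene that had a count kept (1 and 1) and with limma on log2(FPKM + 0.1) (1 and 1). Testing against a fold of 2 left 3 lower in acRIP over IgG, 7 higher in acRIP over input and 0 lower in IgG over input. With limma on log2(FPKM + 1), which understates changes of low genes, these were 1, 7 and 0, and 1 was lower against both. Among members of at least 5 FPKM, a choice made after seeing the data, 0 were lower in acRIP over IgG, 3 in acRIP over input and 0 in IgG over input.

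The median of acRIP over IgG was -0.121 with DESeq2, -0.1213 with RLE factors, -0.0942 with upper quartile factors, -0.194 with library size only, -0.108 with every gene that had a count, -0.151 where each library held 10 counts or more, -0.0857 with protein-coding genes only, -0.117 with the 6 libraries compared, and -0.176 and -0.182 with limma at pseudocounts of 1 and 0.1. For acRIP over input it was 0.0581 with upper quartile factors, 0.0254 with library size only, 0.143 with protein-coding genes only, and 0.0268 and 0.0279 with limma. For IgG over input it was 0.137 with upper quartile factors, 0.204 with library size only, 0.196 with every gene that had a count, and 0.166 and 0.194 with limma. No median changed sign under the alternatives run.

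Values that changed sign did not pass in either setting. Eif1 in acRIP over IgG became 0.00796 with DESeq2, 0.00815 with RLE, 0.0351 with upper quartile factors, 0.0143 with every gene that had a count, 0.0437 with protein-coding genes only and 0.0128 with 6 libraries. Eif2ak1 in acRIP over input became -0.0294 with upper quartile factors, -0.0605 with library size only, and -0.0504 and -0.0585 with limma. Eif3g in IgG over input became -0.0748 with upper quartile factors, -0.00762 with library size only, -0.00581 with every gene that had a count, and -0.00736 and -0.0074 with limma. In acRIP over IgG, Eif2s2 became -0.0448 with library size only, -0.00209 where each library held 10 counts or more, and -0.0433 and -0.0446 with limma, and Eif4a1 became -0.0308 with library size only and -0.0288 and -0.03083 with limma. Leaving out a library gave -0.0325 to 0.0144 for Eif1, -0.0263 to 0.037 for Eif2s2, -0.0728 to 0.103 for Eif4a1, -0.127 to 0.0318 for Eif2d and -0.559 to 0.327 for Eif2s3x in acRIP over IgG, -0.0411 to 0.098 for Eif2ak1 and -0.0152 to 0.207 for Eif4ebp1 in acRIP over input, and -0.0577 to 0.0197 for Eif1a in IgG over input. The cause was not tested.

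With the replicate number as a block, the counts of members called were 0 and 5 in acRIP over IgG, 11 and 6 in acRIP over input and 13 and 1 in IgG over input, and the medians were -0.14, 0.11 and 0.23. Deviations of same-numbered libraries from their group means correlated at -0.0049 to 0.0303. Libraries split from the same RNA could also vary independently, so these values cannot tell whether same-numbered samples were paired.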
